A study of Mus musculus with 6 samples.

Results

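Heat shock proteins and their J-domain cochaperones were described in parvalbumin-positive sensory neurons of the mouse with and without Dicer. The members were the genes of the deposited table whose symbol names an HSP70 (Hspa), small heat shock protein (Hspb and Cryab), HSP90, Hsph1, chaperonin (Hspd1 and Hspe1) or J-domain protein (Dnaja, Dnajb or Dnajc), taken by name and not by any measured value. The rule found 73 names on 74 rows, out of 31032 names on 31469 rows in the whole table. Only Hspa14 had more than 1 row, and its row with the higher mean was used. A mean of at least 1 TPM (a length-scaled share of each library's transcripts) over the 6 libraries was reached by 65 of the 73, and these entered the test together with all other rows above that level, 13787 in all.

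The libraries came from parvalbumin-positive neurons of the dorsal root ganglion at lumbar level 4, in mice of the C57BL/6 strain at postnatal day 21. The genotype was wild type in 3 libraries and a pvalb driven dicer knockout in the other 3, with parvalbumin-cre as the driver. Dicer cuts microRNA precursors into mature microRNAs, and in such animals it is lost only in cells that express the Cre driver, which in this ganglion are mainly the proprioceptors that sense muscle length and tension. The labels do not say whether the wild-type animals carried Cre or a floxed allele, nor which animals the replicates represent. The spread behind every p-value is therefore that among these libraries and may be technical in part.

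Heat shock proteins help other proteins to fold and keep damaged ones from clumping. HSP70 binds exposed stretches of unfolded protein in a cycle driven by ATP. J-domain proteins bring it its clients and switch on its ATPase, HSP110 proteins exchange its nucleotide, and HSP90 finishes the folding of kinases and receptors. Small heat shock proteins work without ATP and hold unfolding proteins and filaments. The cytosol, the endoplasmic reticulum and the mitochondrion each have their own set. Heat shock factor 1 induces many of the cytosolic genes through inverted repeats of GAA called heat shock elements, and the unfolded protein response induces those of the endoplasmic reticulum. Large sensory neurons, which maintain long axons rich in neurofilaments, express Hspb1 constitutively.

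Dicer1 had all 3 knockout values below all 3 wild-type values, at 37.1 ± 11.4 and 22.2 ± 1.619 TPM (SD, n = 3 each). That difference did not pass the test (limma adjusted p = 0.104), and a value for the gene as a whole does not show an exon deletion. Of 8 proprioceptor markers, 7 fell, Pvalb among them (22.6 ± 2.71 to 7.23 ± 5.85 TPM), beside 3.17% of all tested rows called lower. This list was chosen with earlier results of these data known, so its count is a description and no independent check. Satellite glia, which wrap sensory cell bodies, left transcripts in every library: their 12 markers summed to 2160.1 to 3221 TPM in wild type and 1811 to 2227 TPM in knockout, and Fabp7, Gja1 and Ptn fell. Glul, another of the 12, had all knockout libraries above wild type, at 148.7 ± 48.4 and 226 ± 16.8 TPM, and was not called (0.65, adjusted p = 0.105). The 10 general neuron markers summed to 61722 ± 6957 TPM in wild type and 53792 ± 1130.2 TPM in knockout, without overlap, and of these Rbfox3 rose and 9 were not called. Markers of other cells were low. The 6 fibroblast markers summed to 22.9 to 46.0 TPM in wild type and 28.3 to 44.0 TPM in knockout, the 8 of myelinating Schwann cells to 32.6 to 48.7 and 26.8 to 37.1 TPM, the 6 endothelial and mural ones to 12.9 to 20.3 and 19.4 to 29.9 TPM, the 7 macrophage ones to 6.02 to 8.76 and 3.99 to 6.03 TPM, and the 6 muscle ones to 0.66 to 3.36 and 1.47 to 4.07 TPM. Cldn5, C1qa, Myl1 and Tnnt3 were listed at 0 in every library. S100b, which made up 1219.6 to 1354 TPM of every satellite glia sum, is also expressed by large sensory neurons. Of the 12 satellite glia markers, 11 had a negative difference, beside 55.0% of all tested rows. Their median was -0.78, beside -0.05 over all tested rows. Xist was above Ddx3y in replicates 1 and 2 of each genotype and below it in replicate 3 of each, so the genotypes are balanced for this difference. Ddx3y lies on the Y chromosome and was at 0.02 TPM or less in replicates 1 and 2 of each genotype. Replicate 3 of each genotype thus came from other animals than replicates 1 and 2, and the spread within a genotype is partly one between animals. In such bulk samples fewer cells of a type and less RNA per cell cannot be told apart.

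The small heat shock proteins Hspb1 and Hspb6 rose in knockout libraries, while Hspa5, Hsp90b1, Hspa9, Dnaja1 and Dnajc21 fell. Of the 65 tested members, 2 rose and 5 fell by limma at an adjusted p below 0.05, beside 1.86% of all tested rows called higher, 3.17% called lower and 5.03% called in either direction. At an unadjusted p below 0.05, 4 members were higher and 23 lower, beside 9.77% and 14.1% of all tested rows. The difference was negative for 50 of the 65, and the median log2 fold change (knockout minus wild type, on the log2(TPM + 1) scale) was -0.27, beside -0.05 over all tested rows, of which 55.0% were negative. The knockout libraries lay wholly below the wild-type libraries for 26 members and wholly above them for 5, beside 17.1% and 11.8% of all tested rows. Among the 26 members with a mean of at least 100 TPM, 13 had knockout libraries wholly below, as did 24.5% of the 1858 rows at that level.

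The 73 members together made up 1.619% to 1.87% of all transcripts in wild-type libraries and 1.41% to 1.58% in knockout libraries. Their sum was 17216 ± 1306 TPM in wild type and 14824 ± 908 TPM in knockout (SD, n = 3 each), and the groups did not overlap. The small heat shock proteins moved against this sum, from 6.34% ± 0.70 of it in wild type to 12.55% ± 1.84 in knockout. Without them the sum went from 16131 ± 1340.1 to 12973 ± 1056 TPM. The second wild-type library was the highest of all 6 for 26 of the 65 tested members, and the second knockout library was the lowest for 22. Without wild-type replicate 2, wild-type replicate 3, knockout replicate 1 or knockout replicate 2, 0 of the 5 falls stayed called, while both rises stayed called in each case. None of the 7 called members changed direction under any of the 17 alternatives run. The alternatives that changed only the filter, the trend, the replicate block or the summing of rows could not alter these fold changes.

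**Figure D1:**
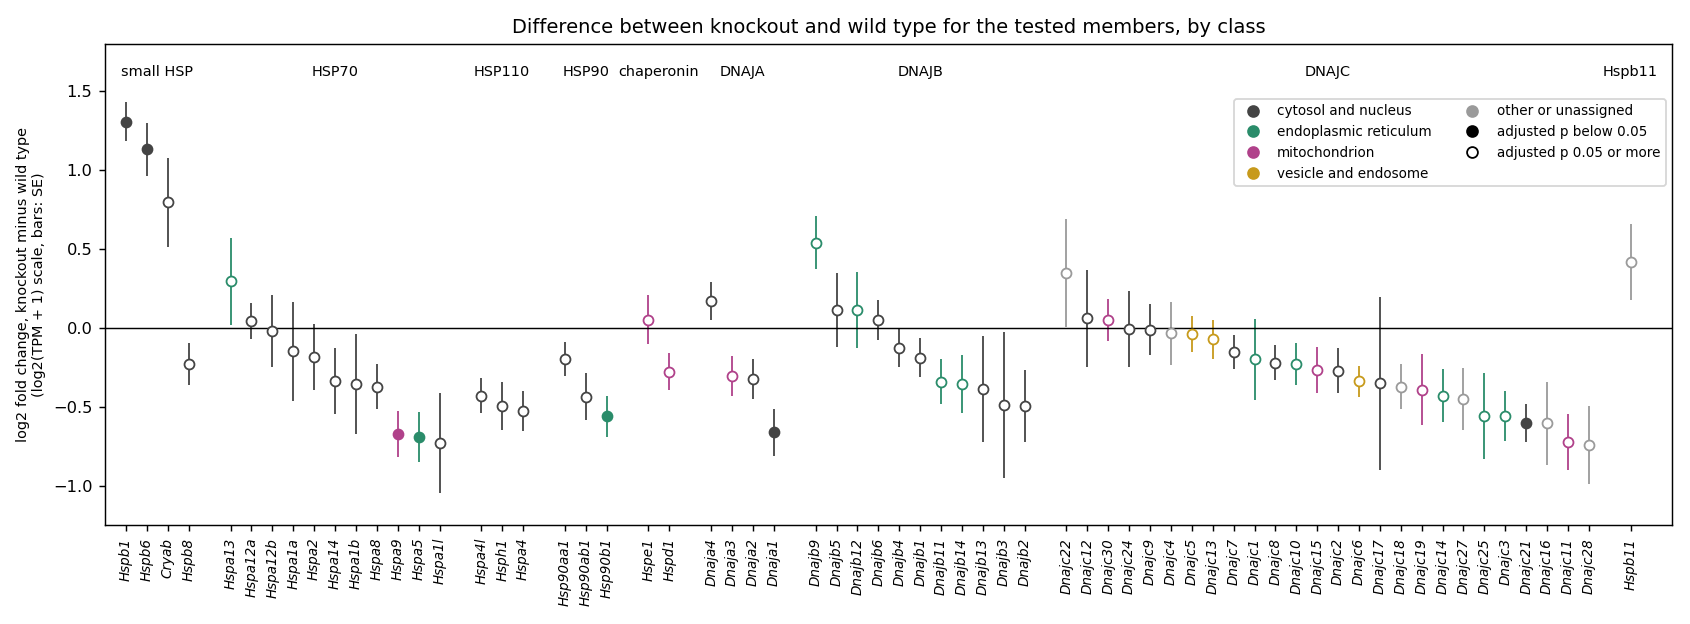
Log2 fold change (knockout minus wild type, log2(TPM + 1) scale) of the 65 tested members by class, with bars for the SE, colour for the compartment and filled points for an adjusted p below 0.05. Hspb1 (1.31) and Hspb6 (1.13) are the filled points above 0, and the 5 filled points below 0 are Hspa9, Hspa5, Hsp90b1, Dnaja1 and Dnajc21, between -0.69 and -0.56.

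Of the 8 small heat shock proteins, 4 were tested, and 2 of these rose, beside 1.86% of all tested rows called higher. Hspb1 (HSP27 in human; chromosome 5, 135887919 to 135889563, GRCm38) binds actin and unfolding proteins and protects neurons and their axons. It was at 353, 313 and 342 TPM in wild type and at 761, 980.3 and 774 TPM in knockout. Every knockout value was more than double every wild-type value. Hspb1 thus averaged 336 ± 20.4 and 838 ± 123 TPM (SD, n = 3 each), a log2 fold change of 1.31 (SE 0.12, adjusted p = 0.00197). The call held under all 17 alternatives, with adjusted p from 0.0013 to 0.0278.

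Hspb6 (chromosome 7, 30552178 to 30555443), a small heat shock protein best known from muscle, was at 266, 172 and 213 TPM in wild type and at 536, 465 and 417 TPM in knockout. The lowest knockout library lay well above the highest wild-type library. Hspb6 had a log2 fold change of 1.13 (SE 0.17, adjusted p = 0.00917), with means of 217 ± 47.0 and 473 ± 60.1 TPM. The call was lost when the satellite glia level was a covariate (1.21, adjusted p = 0.0529) and without an intensity trend (adjusted p = 0.056). The 6 muscle markers given above stayed at or below 4.07 TPM in sum. The 6 endothelial and mural ones summed to 12.9 to 20.3 TPM in wild type and 19.4 to 29.9 TPM in knockout. Which cells the Hspb6 transcripts came from was not tested.

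Cryab (chromosome 9, 50751325 to 50756636), which encodes alpha-B crystallin, a chaperone of intermediate filaments that glia also express, was at 124, 61.9 and 129 TPM in wild type and at 155, 229.9 and 147 TPM in knockout. The groups did not overlap, but the spread was wide and the difference of 0.80 (SE 0.28, adjusted p = 0.128) did not pass. Hspb8, the partner of Bag3 in selective autophagy of misfolded proteins, went the other way, with 397, 509 and 374 TPM in wild type and 343, 366 and 373 TPM in knockout. These groups were almost touching, and the difference of -0.23 was not called (adjusted p = 0.327). Within the class the order of the levels changed. Hspb8 was the highest small heat shock protein in every wild-type library, with 1.09 to 1.623 TPM for each TPM of Hspb1, and in the knockout libraries it was at 0.37 to 0.48 TPM for each TPM of Hspb1. This ratio was picked after the values were seen and is a description.

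The other small heat shock proteins were close to absent. Hspb7 reached at most 0.71 TPM, Hspb3 1.16 TPM and Hspb2 1.12 TPM in any library, and Hspb9 was listed at 0 throughout. Hspb2 lies head to head with Cryab and overlaps it in the GENCODE vM21 annotation. Hspb11 carries the family's name but encodes a subunit of the intraflagellar transport machinery. It was at 35.0, 20.5 and 42.7 TPM in wild type and at 43.1, 42.9 and 40.8 TPM in knockout, with overlapping groups.

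**Figure D2:**
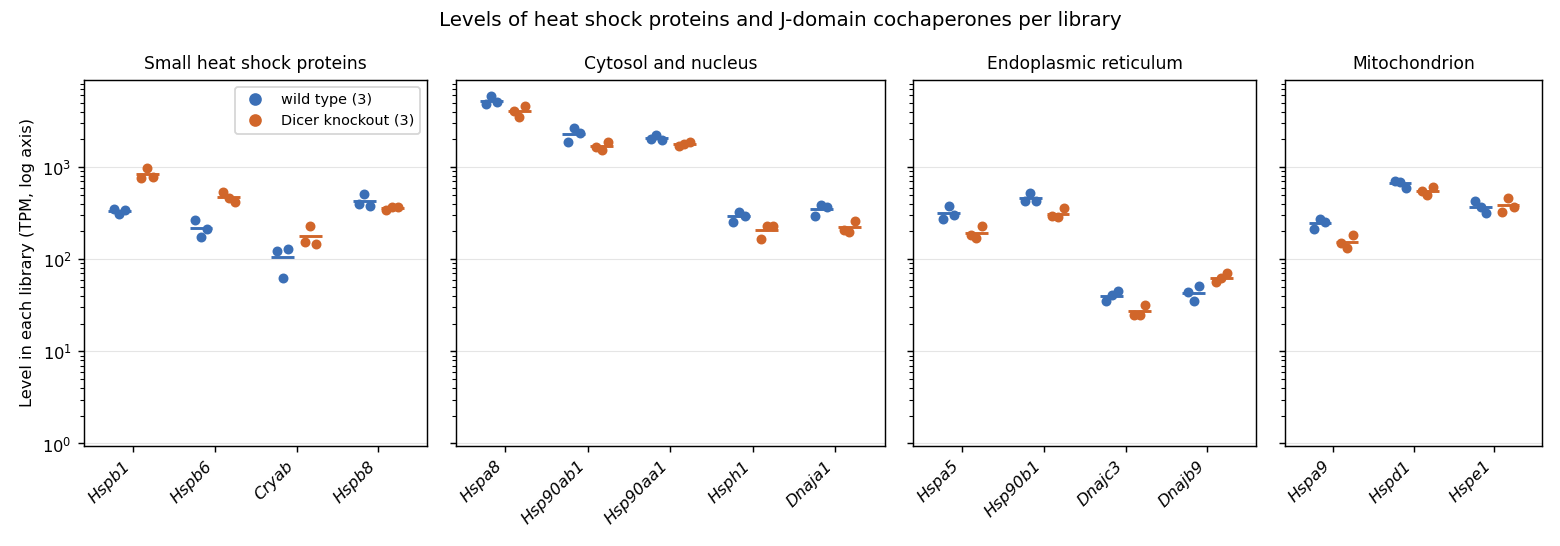
Level (TPM, log axis) of 16 members in each of the 3 wild-type and 3 Dicer knockout libraries, with a point for each library and a line at the group mean. Knockout points of Hspb1 and Hspb6 sit above all wild-type points, those of Hspa5, Hsp90b1, Hspa9 and Dnaja1 sit below them, and those of Hspe1 overlap.

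In the cytosol neither Hspa8 nor the HSP90 genes, the most abundant members, passed the test. Hspa8, the constitutive HSP70 that also uncoats clathrin vesicles, was the most abundant member (chromosome 9, 40800984 to 40810087). It was at 4799.7, 5854 and 5058.5 TPM in wild type and at 4027, 3503 and 4654 TPM in knockout. The groups lay apart, the knockout mean was 77.5% of the wild-type mean, and the log2 difference was -0.37 (SE 0.14, adjusted p = 0.157). Hsp90ab1, the constitutive HSP90, was at 1888, 2668 and 2324 TPM in wild type and at 1635, 1528 and 1891 TPM in knockout, so that a knockout library reached past the lowest wild-type one (-0.44, adjusted p = 0.12). Hsp90aa1, its more inducible sister, was at 2061 ± 157 and 1793 ± 87.4 TPM (-0.20, adjusted p = 0.301). With quantile normalization both HSP90 genes were called lower, and Hsp90ab1 also without wild-type replicate 1. RSEM shares reads between similar genes by a model, which makes the split between the 2 HSP90 genes uncertain.

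The 3 cytosolic HSP110 genes all had knockout libraries below wild-type libraries, beside 17.1% of all tested rows and 24.5% of those averaging at least 100 TPM. None of the 3 genes was called. Hspa4 was at 183, 233 and 224 TPM in wild type and at 148, 135 and 160.2 TPM in knockout (-0.52, adjusted p = 0.0514). Hspa4l was at 223 ± 18.9 and 165 ± 10.01 TPM (-0.43, adjusted p = 0.0598). Hsph1, the heat-inducible member, was at 291 ± 34.3 and 208 ± 36.1 TPM (-0.49, adjusted p = 0.094). Hspa4 was called with a filter at a mean of 5 TPM, and Hspa4 and Hspa4l without wild-type replicate 1. Summed, the class stood at 71.6% of its wild-type mean.

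The strictly heat-inducible HSP70 genes were nearly silent in both groups. Hspa1a was at 4.69, 2.34 and 4.79 TPM in wild type and at 3.38, 2.79 and 3.88 TPM in knockout, and Hspa1b at 2.18 ± 0.29 and 1.49 ± 0.30 TPM (adjusted p = 0.812 and 0.534). These neighbours on chromosome 17 are near-identical, so their split is uncertain. Hspa1l, which lies 546 bases from Hspa1a on the other strand, was at 5.25 ± 0.99 and 2.87 ± 1.21 TPM (-0.73, adjusted p = 0.206). Hspa12a, a distant HSP70 relative, was the second most abundant gene of its class at 715 ± 35.2 and 739 ± 81.6 TPM and was not called (0.04, SE 0.11). Hspa14, a ribosome-associated HSP70, was at 15.4 ± 1.46 and 12.1 ± 2.71 TPM on its main row, and its second row, at 1.81 to 4.02 TPM, was not called either.

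J-domain proteins made up 45 of the 73 members; 41 were tested, 0 rose and 2 fell, beside 1.86% of all tested rows called higher and 3.17% called lower. Dnaja1 (chromosome 4, 40722150 to 40737149), the main class A partner of Hspa8 in the cytosol, was at 293, 386 and 372 TPM in wild type and at 208, 196 and 260.2 TPM in knockout. The groups were separate and the knockout mean was 63.2% of the wild-type mean (log2 fold change -0.66, SE 0.15, adjusted p = 0.0407; 0.0279 to 0.193 over the alternatives). Dnajc21 (chromosome 15, 10446756 to 10470516), which acts in the maturation of the large ribosomal subunit, was at 71.9, 80.95 and 84.1 TPM in wild type and at 51.5, 49.2 and 54.0 TPM in knockout. Its libraries spread little within each group and did not overlap (-0.60, SE 0.12, adjusted p = 0.0268; 0.0219 to 0.150 over the alternatives).

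No class B protein was called in either direction. Dnajb6, which suppresses aggregation of polyglutamine proteins, was at 244 ± 37.3 and 251 ± 14.7 TPM (0.05, SE 0.13), and its sign changed under some alternatives. Dnajb1, the heat-inducible partner of HSP70 in taking aggregates apart, was at 177 ± 19.1 and 155 ± 13.5 TPM (adjusted p = 0.391). Dnaja4 was the class A protein that stood higher, at 43.4 ± 1.54 and 49.1 ± 2.999 TPM (0.17, adjusted p = 0.434). The sums over all class B members overlapped between the groups, whereas those over class A stood at 72.7% and those over class C at 84.0% of their wild-type means without overlap. Dnaja2, the other abundant class A protein, was at 170.0 ± 21.5 and 135 ± 9.20 TPM (-0.32, adjusted p = 0.159). Dnajc7, an HSP70 and HSP90 cochaperone, was at 146 ± 6.60 and 131 ± 10.1 TPM (adjusted p = 0.441). Dnajb7 stayed below the filter, reaching 2.15 TPM in 1 wild-type library, and Dnajb8, Dnajc5b and Dnajc5g were listed at 0 throughout.

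In the endoplasmic reticulum Hspa5 and Hsp90b1 fell. Hspa5 (chromosome 2, 34771970 to 34777547), which encodes BiP, the HSP70 of that compartment and the sensor of its folding load, was at 270.0, 378 and 299 TPM in wild type and at 184, 171 and 229 TPM in knockout. The knockout mean was 61.7% of the wild-type mean (log2 fold change -0.69, SE 0.16, adjusted p = 0.0415; 0.0338 to 0.154 over the alternatives). Hsp90b1 (chromosome 10, 86690209 to 86705509), which encodes GRP94, was at 432, 529 and 425 TPM in wild type and at 297, 286 and 357 TPM in knockout (-0.56, SE 0.13, adjusted p = 0.0456; 0.0359 to 0.155 over the alternatives, with the call also lost without wild-type replicate 1). Of the 12 members assigned to this compartment all were tested, 2 fell and 0 rose, and 9 had a negative difference, beside 3.17% called lower and 55.0% negative over all tested rows. Hspa13, the other HSP70 gene of the compartment, was at 10.2 ± 2.71 and 12.85 ± 4.13 TPM, with overlapping groups (0.30, adjusted p = 0.554). With median-of-ratios rescaling neither Hspa5 nor Hsp90b1 was called, while Dnaja1, Dnajc21 and Hspa9 were.

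The J-domain proteins assigned to the endoplasmic reticulum were not uniform. Dnajc3 (p58IPK), which also restrains the stress kinase PERK, was at 35.1, 41.0 and 44.98 TPM in wild type and at 24.8, 25.0 and 31.5 TPM in knockout (-0.56, SE 0.16, adjusted p = 0.0792). Dnajb11, which helps BiP bind its clients, was at 77.9 ± 5.71 and 61.7 ± 9.85 TPM (-0.34, adjusted p = 0.188). Dnajb9 (ERdj4), an induced cofactor that represses the sensor IRE1, stood opposite, at 44.3, 34.9 and 50.85 TPM in wild type and at 55.9, 61.8 and 71.5 TPM in knockout. Its groups did not overlap, and the difference of 0.54 (SE 0.17) did not pass (adjusted p = 0.0952, and 0.0614 to 0.226 over the alternatives). The ratio of Dnajb9 to Hspa5 in a library was 0.09 to 0.17 in wild type and 0.30 to 0.36 in knockout, a ratio picked after the values were seen. Dnajc10, a reductase that opens disulfide bonds, was at 66.0 ± 2.50 and 56.5 ± 7.13 TPM, and Dnajc14, a membrane protein, at 22.6 ± 1.502 and 16.6 ± 2.33 TPM (adjusted p = 0.335 and 0.163).

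In the mitochondrion Hspa9 (mortalin), the HSP70 that pulls imported proteins into the matrix, fell, and the chaperonin genes did not pass the test. Hspa9 was at 213, 276 and 253 TPM in wild type and at 151, 132 and 181 TPM in knockout, without overlap (62.8% of the wild-type mean; log2 fold change -0.67, SE 0.15, adjusted p = 0.0371; 0.0301 to 0.181 over the alternatives). Hspd1, which encodes the folding chamber HSP60, was at 703, 690.4 and 598 TPM in wild type and at 546, 498 and 600.5 TPM in knockout (-0.28, adjusted p = 0.19). Its lid, encoded by Hspe1, was at 425, 369 and 319 TPM in wild type and at 326, 466 and 368 TPM in knockout, with overlapping groups (0.05, SE 0.16). The 2 genes are transcribed in opposite directions and overlap by 112 bases at their starts. Hspd1 stood at 1.65 to 1.87 TPM for each TPM of Hspe1 in wild type and at 1.07 to 1.68 in knockout. Dnaja3, a matrix J-domain protein, was at 56.6 ± 3.98 and 45.6 ± 3.43 TPM (-0.31, adjusted p = 0.187), and Dnajc11, of the complex that shapes the inner membrane folds, at 24.2 ± 3.52 and 14.2 ± 1.87 TPM (-0.72, adjusted p = 0.0533). Dnajc15, of the import motor, was at 135 ± 23.1 and 111 ± 10.04 TPM (adjusted p = 0.314). Of the 8 mitochondrial members, 1 fell and 7 did not pass, beside 3.17% of all tested rows called lower. Their median was -0.29, beside -0.05 over all tested rows.

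Of the J-domain proteins of vesicles, 3 were tested and 0 were called by limma. At an unadjusted limma p of less than 0.05, Dnajc6 was the 1 gene that was lower, beside 14.1% of all tested rows. Dnajc5, the cysteine string protein that keeps the release machinery of synaptic vesicles folded, was at 191, 174 and 196 TPM in wild type and at 196, 188 and 162 TPM in knockout, with overlapping groups (-0.04, SE 0.12). Dnajc6, the neuronal auxilin that brings Hspa8 to clathrin coats, was at 167, 174 and 175 TPM in wild type and at 140.3, 137 and 131 TPM in knockout. Both auxilin groups were tight and separate, but the difference of -0.34 (SE 0.10) did not pass (adjusted p = 0.0837). Dnajc13, an endosomal protein, was at 62.2 ± 3.23 and 59.3 ± 5.24 TPM. Among J-domain proteins left without a compartment, Dnajc18, Dnajc27, Dnajc16 and Dnajc28 had differences of -0.37, -0.45, -0.60 and -0.74, each with an unadjusted p below 0.05 and an adjusted p of 0.113 or more.

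**Figure D3:**
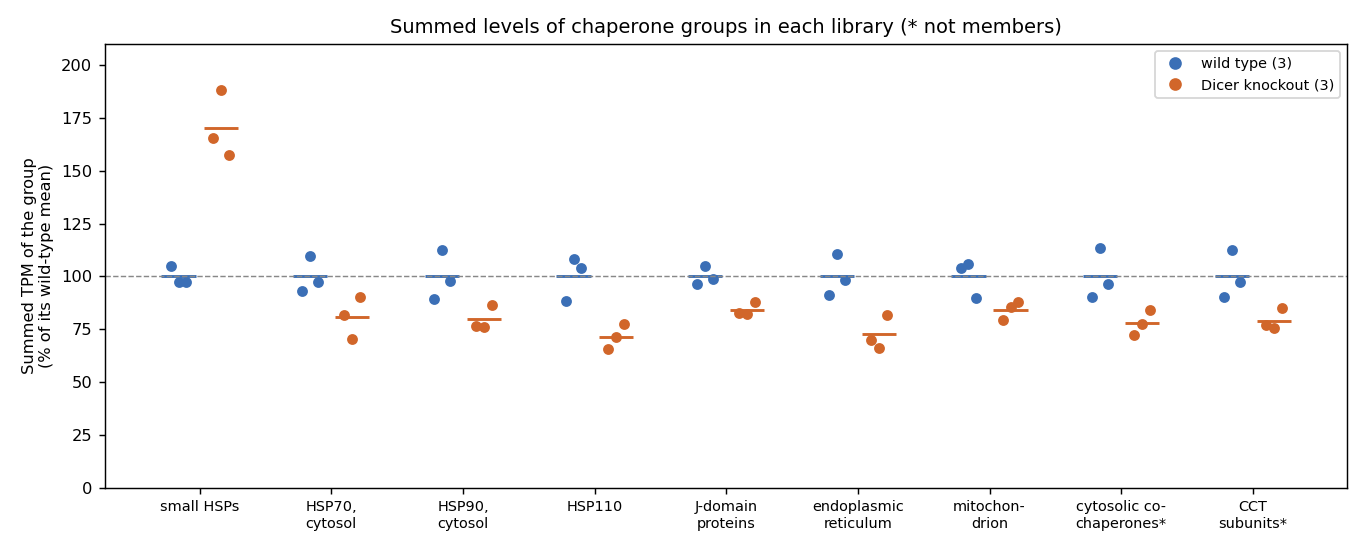
Summed TPM of each chaperone group in each library, as a percentage of that group's wild-type mean, with a line at each group mean; groups with an asterisk are not members. The small heat shock proteins stand at 170% of wild type on average, and the other 8 groups lie below 100%, from 71.6% for HSP110 to 84.2% for the J-domain and mitochondrial groups. The CCT sum covers 5 of the 8 subunits listed.

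Promoter windows, where available, show which of these genes carry the elements known for heat shock and for endoplasmic reticulum stress. Promoter windows from 250 bases before to 50 bases after each RefSeq start (GRCm38.p6) were found for 58 of the 73 members. They were searched on both strands for a pair of inverted heat shock units (GAANNTTC or TTCNNGAA), for 3 units in a row (GAANNTTCNNGAA, which contains both pairs), and for the endoplasmic reticulum stress element (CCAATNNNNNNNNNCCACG). Of the 58 members, 16 had a pair of units in at least 1 window (27.6%, beside 16.97% of all 27025 genes with a window), 4 had 3 units (6.90%, beside 0.66%), and 3 had the stress element (5.17%, beside 0.14%). Members without a window, among them Hspa8, Hsp90aa1, Hsp90ab1, Hspa9 and Cryab, were not searched, so whether they hold these letters is not known here. A match of letters is a description and not a measured binding site.

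Both called rises have a window with a pair of heat shock units, shown in capitals on the coding strand, as do Dnaja1, which fell, and Hspa1a, which was nearly silent. Hspb6 has the pair in 1 of its 2 windows, at an alternative start well inside the GENCODE gene, and Dnaja1 has it in 1 of its 3 windows. They are shown so that members with like elements and unlike values can be compared. The Hspb1 stretch (chr5:135887794-135887837, plus strand) holds 2 pairs. The others are Hspb6 (chr7:30553165-30553204, plus strand), Dnaja1 (chr4:40722328-40722367, plus strand) and Hspa1a (chr17:34972237-34972276, minus strand).
Hspb1: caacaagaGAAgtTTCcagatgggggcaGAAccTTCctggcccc
Hspb6: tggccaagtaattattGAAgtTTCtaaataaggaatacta
Dnaja1: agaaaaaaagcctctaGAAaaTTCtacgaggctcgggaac
Hspa1a: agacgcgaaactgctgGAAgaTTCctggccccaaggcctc
Hspa1b has the same 40 bases as Hspa1a. The Dnaja1 stretch also lies in noncoding transcripts of both strands in GENCODE. Hspd1 and Hspe1 share a single run with 3 pairs, given here on the Hspe1 strand, and Dnajb6 has 3 units in a row. Both lie within a first exon of the GENCODE annotation, so the matched letters alone are given.
Hspe1: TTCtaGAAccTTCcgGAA
Dnajb6: GAAtcTTCcgGAA
Of the 14 tested members with a pair of units, 2 rose (Hspb1 and Hspb6), 1 fell (Dnaja1) and 9 had a negative difference, with a median of -0.19. Over all 1316 tested genes with a pair, 29 rose and 38 fell, with a median of -0.05. The 4 members with 3 units, Hspd1, Hspe1, Dnajb6 and Hsph1, were not called. Members with these letters thus stood on both sides of 0.

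The stress element was found in 3 of the 11 endoplasmic reticulum members with a window, and in each the letters are in capitals. They are shown because these 3 members all had knockout libraries wholly below wild-type libraries. For Hspa5 the match alone is given, 65 to 47 bases before the RefSeq start and within a GENCODE first exon. The others are Dnajc3 (chr14:118937817-118937855, plus strand) and Hsp90b1 (chr10:86705628-86705666, minus strand), which has a second match on its other strand.
Hspa5: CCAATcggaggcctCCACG
Dnajc3: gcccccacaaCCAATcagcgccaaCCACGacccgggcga
Hsp90b1: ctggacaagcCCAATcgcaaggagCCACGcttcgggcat
Hspa5, Hsp90b1 and Dnajc3 had log2 differences of -0.69, -0.56 and -0.56, and Hspa5 and Hsp90b1 were called. The window of Dnajb9, which stood higher in knockout libraries, holds no match to these letters. Of the tested genes that are no members, 13 had the element, with a median of -0.34, beside -0.05 over all tested rows. Of these, 10 were negative, beside 55.0% of all tested rows. Beside 17.1% and 11.8% of all tested rows, 6 of the 13 genes had knockout libraries wholly below wild type and 2 wholly above. They included the lectin chaperone genes Calr and Canx and the disulfide isomerase gene Pdia6 (-0.41, -0.40 and -0.34) on one side and Alg12, a mannosyltransferase gene, Pan2 and the ubiquitin ligase gene Syvn1 on the other (0.60, 0.19 and 0.18); 0 of the 13 were called by limma (lowest adjusted p = 0.128).

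Partners of these chaperones that the rule does not name were read from 4 lists of 67 genes in all, of which 63 were tested, 0 rose and 4 fell, beside 1.86% and 3.17% of all tested rows. The 4 were all cytosolic cochaperones, a list with 21 tested members and a median of -0.24. Bag1, a nucleotide exchange factor of HSP70, was at 198, 248 and 239.7 TPM in wild type and at 126, 124 and 149 TPM in knockout (log2 fold change -0.77, SE 0.13, adjusted p = 0.0143). Stub1 (CHIP), the ubiquitin ligase that marks chaperone clients for destruction, was at 71.8 ± 21.2 and 36.1 ± 1.14 TPM (-0.93, adjusted p = 0.0391). Cdc37, which brings kinases to HSP90, was at 74.3 ± 8.63 and 46.7 ± 3.15 TPM (-0.65, adjusted p = 0.0299), and Stip1 (HOP), which links HSP70 to HSP90, at 169 ± 17.8 and 119 ± 7.14 TPM (-0.49, adjusted p = 0.048). The calls of these 4 genes were lost without wild-type replicate 3, knockout replicate 1 or knockout replicate 2, and without wild-type replicate 2 only Bag1 kept its call. Without knockout replicate 3, Stub1, Cdc37 and Stip1 lost theirs.

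The regulators and other partner genes named next showed no called difference in RNA level. The activity of their proteins was not measured. Hsf1, which encodes heat shock factor 1, was at 28.4, 30.0 and 31.8 TPM in wild type and at 24.0, 27.6 and 30.2 TPM in knockout (-0.14, SE 0.15, adjusted p = 0.607). Bag3, a classical heat shock factor target and partner of Hspb8, was at 344 ± 48.9 and 394 ± 83.7 TPM (0.18, SE 0.17). Of 25 tested genes of endoplasmic reticulum folding and the unfolded protein response 0 were called by limma; 1 was higher and 5 were lower at an unadjusted p of less than 0.05, and the median was -0.16, where 9.77% of all tested rows were higher and 14.1% lower at that level. Xbp1, the transcription factor downstream of IRE1, was at 67.5 ± 7.48 and 71.9 ± 8.61 TPM, Atf4 at 186 ± 7.87 and 158 ± 20.6 TPM, the stress-induced Ddit3 (CHOP) at 13.4 ± 3.56 and 13.5 ± 1.43 TPM, and Hyou1, the HSP110 of that compartment, at 35.9 ± 6.58 and 31.6 ± 6.65 TPM. Neither the 5 tested subunits of the cytosolic chaperonin CCT (median -0.41, 3 lower at an unadjusted p below 0.05) nor the 12 genes of mitochondrial folding (median -0.22, 4 lower) gave a call. The other 3 of the 8 CCT genes listed, Tcp1, Cct3 and Cct7, were not found by name and were not read. Trap1, the mitochondrial HSP90, was at 70.6 ± 14.8 and 52.4 ± 3.83 TPM (-0.41, adjusted p = 0.18).

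Some satellite glia markers and immediate early genes also stood apart between the genotypes, in both directions. Fabp7, the satellite glia fatty acid binding protein, was at 768, 433 and 788 TPM in wild type and at 185, 104 and 354 TPM in knockout. Glul, of the same list, went the other way, at 145.5, 102 and 199 TPM in wild type and at 212, 222 and 245 TPM in knockout, and S100b was at 1273 ± 38.3 and 1266 ± 75.8 TPM. When the satellite glia level was a covariate, Hspb1 stood at 1.26 (adjusted p = 0.0278), while Hspa5, Hsp90b1, Hspa9, Dnaja1 and Dnajc21 stood at -0.70, -0.59, -0.59, -0.57 and -0.55 with adjusted p from 0.150 to 0.193. Of 9 tested immediate early genes, which rise with activity and with cell isolation, Fos rose (11.2 ± 0.86 to 20.4 ± 3.07 TPM) and 8 did not pass. Knockout libraries lay wholly above wild type for 2 of the 9 (Fos and Zfp36), beside 11.8% of all tested rows. They lay wholly below for 2 (Jun and Ier2), beside 17.1%. The sums of the immediate early genes overlapped, at 141 to 179 TPM in wild type and 146 to 208 TPM in knockout. The part of the immediate early genes in these results was not tested.

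**Figure D4:**
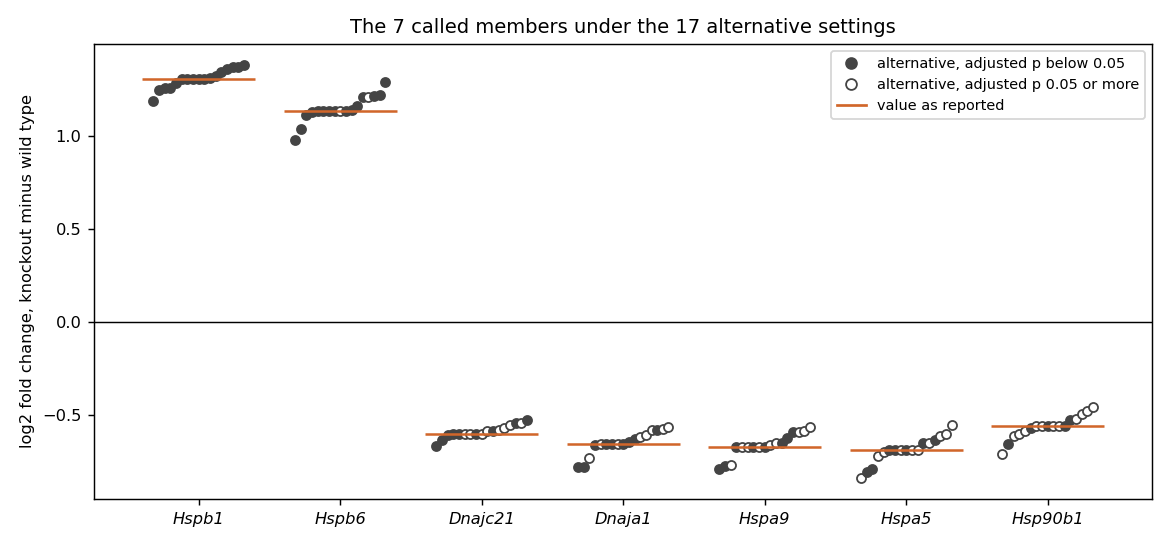
Log2 fold change (knockout minus wild type) of the 7 called members under each of the 17 alternative settings, filled where the adjusted p was below 0.05, with a line at the value as reported. All points of Hspb1 are filled, from 1.19 to 1.38, 15 of 17 are filled for Hspb6, and 5 to 9 of 17 for the 5 members that fell.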

How the data were processed

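RNA from parvalbumin-positive neurons was extracted with PicoPure, then amplified as cDNA with an Ovation kit, per the labels' protocols; such amplification adds noise, most for rare transcripts. The authors deposited TPM values, made with cutadapt, Bowtie2 and RSEM 1.2.7 on mm10, per the submitters' processing notes; which annotation was used is not stated. TPM keeps no depth, so depth per library is unknown and limits on rare transcripts cannot be given. RSEM divides reads between similar genes by a model, and a value of 0 can be a failed estimate.

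Here, the 13787 rows averaging 1 TPM or more were tested as log2(TPM + 1) with limma 3.58.1 (R 4.3.3; intensity trend, genotype only, two-sided, Benjamini-Hochberg over all rows, threshold 0.05). An exact permutation test of 3 against 3 cannot go below 0.1, so none is given. The script was first tested on simulated data. Coordinates are from GENCODE vM21 (GRCm38). Named genes were members at an unadjusted limma p below 0.05, the most abundant of each class and compartment, and a set of central chaperones. Added to these were names with several rows, and called genes of the partner lists with 7 regulators and other partners. Others are named for class descriptions. Members, lists, classes and alternatives were chosen with earlier results of these data known, and the promoter search, the ratios, the count at 100 TPM and the summed levels after the values were seen.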

Additional observations from a re-analysis of the deposited data

How the results depend on the processing

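The 2 rises became 1 without an intensity trend and with the satellite glia covariate. The 5 falls became 3 with median-of-ratios rescaling, 1 without a filter, 1 with a replicate block, 8 with quantile normalization, and 0 without a trend, with the glia covariate and in the 4 libraries with Xist above Ddx3y (replicates 1 and 2); leaving out single libraries gave 0 to 8 falls and 2 rises each time. Over all rows, 256 rises and 437 falls became 130 and 248 without a filter, 57 and 168 without a trend, 65 and 139 in the Xist libraries and 62 and 84 with the glia covariate, and leaving out single libraries gave 48 to 348 rises and 116 to 487 falls. The 4 partner genes called became 2 without a filter, 0 without a trend, 0 in the Xist libraries, 0 with the glia covariate, and 0 to 8 without single libraries. With the replicate block, Dnaja1 kept its call among the falls, and both rises kept theirs. Same-numbered libraries correlated at 0.04 to 0.07 in their deviations from group means, and libraries of unlike number at -0.10 to 0.07. With 3 libraries per genotype this cannot decide whether the numbers pair them. Median-of-ratios rescaling moved the median of all rows from -0.05 to 0.02 and that of the members from -0.27 to -0.20, with 44 of 65 negative, and raised the share of rises among all calls from 36.9% to 49.3%; quantile normalization gave 46.2% and 45 of 65. Sign changes occurred among 7 named genes that were called under neither setting (17 cases: Dnajb6, Dnajc5, Hspe1, Hspa1a, Bag3, Ddit3 and Xbp1). The unknown depth limits what can be said of genes under about 1 TPM.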
